A study of Mus musculus with 40 samples.

Results

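The genes described here are 32 markers of cells other than T cells, read in RNA from mouse CD4 T cells to describe what the samples hold. They comprise 19 myeloid markers (Lyz1, Lyz2, Ctss, Cst3, S100a8, S100a9, Cd68, Fcer1g, Tyrobp, Csf1r, Clec4d, Mpo, Adgre1, Cd14, Elane, Pf4, Itgam, Itgax and Xcr1), 6 genes of MHC class II presentation with Cd83 (H2-Aa, H2-Ab1, H2-Eb1, Cd74, Ciita and Cd83) and 7 B cell markers (Cd79a, Cd79b, Ms4a1, Ighm, Blk, Ebf1 and Pax5). Each was taken by its symbol from a list of names that was drawn up with earlier results of these data known. All 32 had a probe set on both Affymetrix array types, among 18194 genes on the arrays of sorted T cells and 17097 genes on the arrays of ligand-treated cells. Where a gene had several probe sets, the one with the highest mean over the arrays stood for it.

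The sorted T cell experiment used C57Bl/6 mice with a Foxp3GFP reporter. Activated regulatory T cells (Treg, 3 arrays) and resting Treg (3 arrays) were CD4+ CD45RBlow GFP+ cells, and resting conventional T cells (2 arrays) were CD4+ CD45RBhi GFP- cells. All were kept in culture for 48 h, the activated Treg with anti-CD3/CD28 and the others without stimulation. The labels name bone marrow as the source of these 8 samples. Whether the sorted cells came from there was not tested, and this bears on how the levels of myeloid and B cell genes are read. The ligand experiment used CD4+ CD45RBlo YFP+ Treg of C57Bl/6 mice from spleen and peripheral lymph nodes. All of these mice carried Foxp3-YFP-iCre, a Cre recombinase made by cells that express Foxp3, and the NRP KO mice also carried Nrp fl/fl, whereas the WT mice did not. In both genotypes the cells received anti-CD3 bound to the plate at 1 µg/mL, anti-CD28 in solution at 2 µg/mL and IL-2 at 100 U/mL. They were cultured on immobilised Sema4a-Ig, a semaphorin fusion protein, or on mouse IgG1, each at 10 µg/mL, with 8 arrays in each of the 4 combinations. The labels give no ages and do not state whether each replicate is its own animal or culture. The spread behind the p-values is that between these arrays, and part or all of it may be technical.

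Myeloid cells (neutrophils, monocytes, macrophages and dendritic cells) are known by granule and lysosomal proteins and by Fc receptor adaptors. MHC class II molecules present peptides to CD4 T cells and are made mainly by dendritic cells, B cells and macrophages, under the control of the coactivator that Ciita encodes. The B cell receptor consists of an immunoglobulin, whose mu heavy chain Ighm encodes, and the signalling chains CD79A and CD79B. Some of these genes are not exclusive to the cells they mark: activated lymphocytes can express Cd83, for example. In RNA from bulk samples, fewer cells of a type and less RNA per cell cannot be told apart.

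Several arrays stood apart or went against a label. Activated Treg replicate 1 held the highest value of 14 of the 32 genes, including 11 of the 19 myeloid markers. Over all genes, the same array held the highest value of 23.6%. Resting Treg replicate 3 held the highest value of 9 of the 32 genes, among them 4 of the 6 genes of the MHC class II and Cd83 group, against 17.8% of all genes. The Actb 3' minus 5' log2 signal, which is large where RNA is short, was 5.87, 6.17 and 2.31 in activated Treg, 5.90, 2.50 and 2.67 in resting Treg, and 1.24 and 1.54 in conventional T cells. Its part in the results below was not tested beyond the block and within-class values given there. In the ligand experiment, WT with Sema4a-Ig replicate 2 has WT in its title and the knockout genotype in another label, and it was kept as WT. The arrays of this experiment form 16 pairs of 1 Sema4a-Ig and 1 IgG1 array of 1 genotype. Every pair had the same mean at each probe set, within 6e-05, so levels could not be compared between genotypes and the loss of Nrp1 could not be checked.

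The cells were first read for the genes that define T cells. By its mean over the 8 sorted arrays, each of 14 measured genes of a T cell list lay above the highest control mean (4.02). On the 2 conventional T cell arrays the lowest log2 signal of the list was 3.67 and 3.72, below the highest control (4.04 and 4.03). The list averaged 11.20, 11.15 and 11.66 in activated Treg, 10.92, 11.10 and 11.20 in resting Treg, and 9.60 and 9.61 in conventional T cells. It includes the Treg genes Foxp3, Il2ra, Ctla4 and Ikzf2, which were higher in the Treg groups by 5.49 to 7.07. The averages therefore do not compare the T cell content of the groups. The median difference of the list from conventional T cells was 0.01 for resting and 0.38 for activated Treg. Cd3e, a chain of the T cell receptor complex, was between 9.63 and 10.17 on all 8 sorted arrays. Cd4 was at 9.38, 9.82 and 10.58 in activated Treg, 9.53, 10.11 and 10.085 in resting Treg, and 11.05 and 11.21 in conventional T cells. Both Treg groups lay below conventional T cells without overlap. The differences were -1.22 for resting and -1.20 for activated Treg, neither with an adjusted p under 0.05 (limma, 0.0848 and 0.0655). With the class of the Actb signal as a block, Cd4 was called lower in resting Treg. Foxp3, the transcription factor of Treg, was at 10.74, 10.91 and 10.77 in activated Treg, 10.38, 10.33 and 10.60 in resting Treg, and 3.95 and 4.05 in conventional T cells. On the ligand arrays Cd3e averaged 8.67 and Cd4 7.84, while Foxp3 averaged 3.55, below the highest mean of the nonspecific control probe sets (3.95). The other 13 of the 14 T cell genes were above it there, including the Treg genes Il2ra, Ctla4 and Ikzf2. These cells were sorted by the YFP of Foxp3-YFP-iCre. A mean below the controls on the ligand arrays therefore does not show that a gene was not expressed.

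On the sorted arrays the means of the 32 markers were between 4.19 for Ciita and 13.45 for Ighm, all above the highest mean of 3 bacterial TrpnX control probe sets (4.02), as were 91.1% of all genes. Array by array, 27 of the 32 markers were above the controls on all 8 arrays, while Cd68 and Ms4a1 were so on 7, Lyz1 and S100a9 on 6 and Ciita on 5. A stricter yardstick was 14 genes of tissues such as pancreas and testis, whose means reached 5.93 for Ins2. Only 9 of the 32 markers lay above that level: Ctss, Cst3, Csf1r, H2-Aa, H2-Eb1, Cd74, Cd83, Cd79b and Ighm. Csf1r did so by 1 of its 3 probe sets (6.10), while the others averaged 5.72 and 5.62. The map of the 32 genes on the 8 arrays shows where each gene departs from its own mean.

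**Figure D1:**
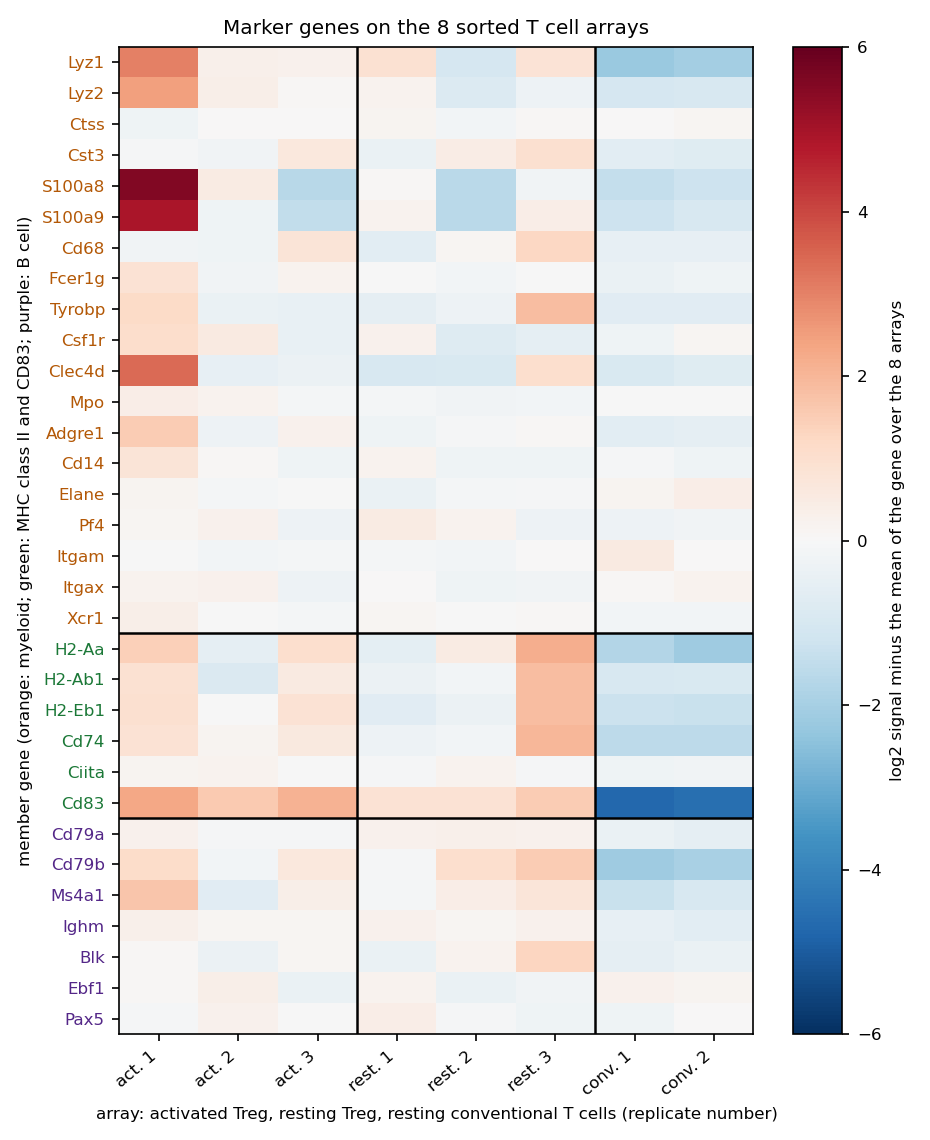
Log2 signal of each of the 32 marker genes (rows) on the 8 sorted T cell arrays (columns: activated Treg, resting Treg, resting conventional T cells, with replicate numbers), as the difference from the mean of the gene over the 8 arrays. Red is above and blue below that mean. S100a8, S100a9 and Clec4d stand out on activated Treg replicate 1, H2-Aa, H2-Ab1, H2-Eb1 and Cd74 on resting Treg replicate 3, and Cd83 is low in both conventional T cell arrays.

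The first comparison set resting Treg against unstimulated conventional T cells and asked whether the sorts differ in these markers at rest. Cd83 and 3 B cell genes, Cd79b, Ighm and Cd79a, were higher in resting Treg. These 4 of 32 passed limma's test (adjusted p under 0.05 over all genes, in either direction), and 5.51% of all genes did so. No member was called lower, and 3.86% of all genes were called higher. The genes of MHC class II itself were also higher on every resting Treg array than on both conventional T cell arrays, but none of the 5 passed. No myeloid gene passed. With the class of the Actb 3' minus 5' signal as a block, 6 members were called, H2-Aa (3.04, limma, adjusted p = 0.0471) and the myeloid gene Cst3 (1.32, adjusted p = 0.00899) in addition to those 4.

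Cd83 encodes a surface glycoprotein of mature dendritic cells and activated lymphocytes. Its log2 signal was 11.51, 10.77 and 11.25 in activated Treg, 10.06, 10.08 and 10.70 in resting Treg, and 4.50 and 4.65 in conventional T cells. The 3 groups did not overlap, and it was the sole member for which activated Treg lay above resting Treg on every array. It was higher by 5.71 ± 0.27 (SE) in resting Treg than in conventional T cells, a 52.4-fold difference (limma, adjusted p = 2.51e-05), and kept its call under all 15 alternatives tried. Its conventional T cell values were not far above the highest control value on any array (4.14) and below the highest tissue-restricted mean (5.93). The size of the fold difference is therefore not well measured.

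Among the B cell genes, Cd79b was at 7.33, 6.08 and 6.89 in activated Treg, 6.19, 7.24 and 7.75 in resting Treg, and 4.10 and 4.31 in conventional T cells. The conventional T cell values were near the highest control value on any array (4.14), and both Treg groups lay above them without overlap. The difference between resting Treg and conventional T cells was 2.85 ± 0.48 (SE; limma, adjusted p = 0.0120). Cd79a, which encodes the other signalling chain of the B cell receptor, was at 5.15, 4.85 and 4.84 in activated Treg, 5.14, 5.19 and 5.17 in resting Treg, and 4.51 and 4.37 in conventional T cells. It was higher in resting Treg by 0.73 ± 0.16 (SE; limma, adjusted p = 0.0390). This call ended under 6 of 15 alternatives, among them leaving out any 1 resting Treg array.

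Ighm was at 13.73, 13.54 and 13.58 in activated Treg, 13.71, 13.56 and 13.68 in resting Treg, and 12.95 and 12.82 in conventional T cells. The signal was far above the controls in all 3 groups, conventional T cells included, and both Treg groups lay above them without overlap. It was higher in resting Treg by 0.77 ± 0.15 (SE; limma, adjusted p = 0.0245). The array has 11 probe sets for Ighm that disagree in level: this one averaged 13.45 and a second 12.50, and the others averaged from 4.16 to 6.19. With the mean of all Ighm probe sets the difference was 0.17 (limma, adjusted p = 0.662), and the call also ended without resting Treg replicate 1 or 3.

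Ms4a1, the gene of the B cell surface protein CD20, was at 6.78, 4.42 and 5.47 in activated Treg, 5.001, 5.50 and 5.84 in resting Treg, and 3.79 and 4.19 in conventional T cells. All Treg values lay above all conventional T cell values. The difference for resting Treg, 1.46 ± 0.59 (SE), did not pass (limma, adjusted p = 0.236). The kinase gene Blk and the B cell transcription factor genes Ebf1 and Pax5 had differences of 0.82, -0.34 and 0.14 for resting Treg against conventional T cells, and none passed.

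H2-Aa, which encodes the alpha chain of I-A, was at 9.82, 7.84 and 9.38 in activated Treg, 7.79, 8.86 and 10.55 in resting Treg, and 6.64 and 6.24 in conventional T cells. Cd74, the invariant chain that escorts class II molecules, was at 8.18, 7.48 and 7.93 in activated Treg, 7.02, 7.18 and 9.34 in resting Treg, and 5.74 and 5.77 in conventional T cells. Both genes were lowest in conventional T cells with no overlap, and both were highest on resting Treg replicate 3. H2-Eb1 and H2-Ab1, which encode beta chains of I-E and I-A, were also highest there, at 8.68 and 7.75. Ciita was not: it was highest on activated Treg replicate 2 (4.42), was at 4.13 on resting Treg replicate 3 and had a range of 0.50.

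The differences between resting Treg and conventional T cells were 2.63 ± 0.80 for H2-Aa (SE; limma, adjusted p = 0.114) and 2.09 ± 0.62 for Cd74 (adjusted p = 0.105). They were 1.58 for H2-Eb1, 1.39 for H2-Ab1 and 0.28 for Ciita, none of which passed. Within-group spread was wide in resting Treg (H2-Aa 9.07 ± 1.40, SD, n = 3) and narrow in conventional T cells (6.44 ± 0.28, SD, n = 2). Without resting Treg replicate 3 the members called were Cd74, Cd79b and Cd83, and without either conventional T cell array Cd83 was the single call.

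MHC class II promoters are known for a conserved inverted CCAAT element, the Y box. The promoters of H2-Aa and H2-Eb1 are shown because they alone, among 20 members searched, held the letters CTGATTGG. Both genes were lowest in conventional T cells and highest on resting Treg replicate 3. H2-Ab1 and Cd74, which are not shown, had that pattern too. The windows are the 250 bases before the start of each gene in RefSeq, on assembly GRCm38.p6, read along the gene (chr17:34287824-34288073, minus strand, and chr17:34305617-34305866, plus strand). Capitals mark the letters CTGATTGG, a form of the Y box.
H2-Aa: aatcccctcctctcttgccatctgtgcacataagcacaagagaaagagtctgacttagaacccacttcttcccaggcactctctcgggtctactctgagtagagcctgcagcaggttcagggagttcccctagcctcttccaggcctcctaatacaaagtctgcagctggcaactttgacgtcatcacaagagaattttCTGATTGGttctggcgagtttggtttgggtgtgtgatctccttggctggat
H2-Eb1: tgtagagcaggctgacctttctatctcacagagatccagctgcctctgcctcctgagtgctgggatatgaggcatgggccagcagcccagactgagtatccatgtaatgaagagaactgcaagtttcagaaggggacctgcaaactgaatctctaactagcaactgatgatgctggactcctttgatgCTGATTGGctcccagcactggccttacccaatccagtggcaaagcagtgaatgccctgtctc
The element began 51 bases before the start in H2-Aa and 62 bases before it in H2-Eb1. Searched on both strands, it was in 3.83% of 32851 promoter windows, and among the 20 members with a window it was in these 2. A match describes the letters only.

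Activated Treg were compared with the same 2 conventional T cell arrays, so this comparison shares them with the one before. Members called higher were Cd83, Lyz1, Cd79b and Ighm, 4 of 32, and none was called lower. Over all genes 9.70% were called in either direction and 5.93% were called higher. Cd83 was higher by 6.61 ± 0.27 (SE), a 97.6-fold difference (limma, adjusted p = 1.06e-05), Cd79b by 2.56 ± 0.48 (adjusted p = 0.0126) and Ighm by 0.73 ± 0.15 (adjusted p = 0.0198). With the mean of all Ighm probe sets the last value was 0.22 (limma, adjusted p = 0.462). For Cd83 the same conventional T cell values, not far above the controls, leave this fold difference too not well measured. Without resting Treg replicate 3, 7 members passed (Cd74, H2-Aa and H2-Eb1 were added), and without either conventional T cell array Cd83 alone did. With the Actb class as a block the calls were Cst3 (1.41), H2-Aa (3.40), Cd83, Cd79b and Ighm, and Lyz1 was not among them.

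Lyz1 and Lyz2 encode lysozymes, antibacterial enzymes of phagocytes and, for Lyz1, of Paneth cells. Lyz1 was at 8.92, 6.23 and 6.15 in activated Treg, 6.82, 4.91 and 6.74 in resting Treg, and 3.68 and 3.86 in conventional T cells. Every Treg array lay above both conventional T cell arrays, whose values were below the highest control mean (4.02). Since both were not above the controls of their own arrays, the difference between the means is a bound. By the mean of their 3 arrays, activated Treg were at least 8.36-fold higher, against the control signal of the conventional T cell arrays. Replicate 1 (8.92, against 6.23 and 6.15) raised that mean, so the bound does not hold for each array. The fitted difference was 3.33 ± 0.87 (SE; limma, adjusted p = 0.0498). The call ended under 8 of 15 alternatives, and without activated Treg replicate 1 it was 2.42 (limma, adjusted p = 0.0658). Lyz2 was at 7.98, 5.90 and 5.59 in activated Treg, 5.74, 4.69 and 5.23 in resting Treg, and 4.53 and 4.55 in conventional T cells. It too did not overlap between activated Treg and conventional T cells, with a difference of 1.95 ± 0.65 (SE) that did not pass (limma, adjusted p = 0.112).

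The names of these 2 genes are not secure on the arrays. The probe set numbered 1439426 is annotated to Lyz1 on the sorted arrays and to Lyz2 on the ligand arrays, and the probe set numbered 1450822, annotated to Lyz1 on both, averaged 3.79 and 3.02, below the highest control mean on each. The 2 genes are neighbours on chromosome 10 and alike in sequence. Their promoters are given from RefSeq (GRCm38.p6, minus strand, chr10:117292869-117293118 for Lyz1 and chr10:117282273-117282522 for Lyz2) to show how close the copies are, although the probes read the transcripts. Capitals mark the longest run that both share, 50 bases that end at the start of the gene.
Lyz1: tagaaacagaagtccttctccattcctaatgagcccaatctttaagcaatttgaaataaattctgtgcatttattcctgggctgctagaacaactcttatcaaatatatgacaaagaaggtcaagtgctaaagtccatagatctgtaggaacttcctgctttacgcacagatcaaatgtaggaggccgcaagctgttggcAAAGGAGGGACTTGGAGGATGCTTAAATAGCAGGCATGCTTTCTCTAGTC
Lyz2: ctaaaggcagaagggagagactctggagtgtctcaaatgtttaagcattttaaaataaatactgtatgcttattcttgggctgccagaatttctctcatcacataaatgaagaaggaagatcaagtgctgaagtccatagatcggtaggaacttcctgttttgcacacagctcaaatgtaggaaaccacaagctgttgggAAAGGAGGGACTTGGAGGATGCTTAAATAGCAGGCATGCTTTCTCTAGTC
Compared without gaps, 152 of the 250 positions were identical.

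S100a8 and S100a9, the subunits of calprotectin, a calcium-binding protein abundant in neutrophils and monocytes, were among the 3 members with the widest ranges over the 8 arrays, with Cd83 (7.19, 6.51 and 7.02). S100a8 was at 11.29, 6.22 and 4.10 in activated Treg, 5.82, 4.13 and 5.56 in resting Treg, and 4.32 and 4.52 in conventional T cells. S100a9 was at 10.32, 5.17 and 3.96 in activated Treg, 5.66, 3.81 and 5.85 in resting Treg, and 4.19 and 4.48 in conventional T cells. Activated Treg replicate 1 lay far above the other 7 arrays for both genes, and all 3 groups overlapped with or without it. Against conventional T cells, activated Treg differed by 2.79 ± 1.72 for S100a8 (SE; limma, adjusted p = 0.432), and by 0.74 without that array.

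The same array was high for Clec4d, a C-type lectin receptor of myeloid cells, and for Adgre1, which encodes a surface receptor of macrophages. Clec4d was at 8.66, 4.75 and 4.92 in activated Treg, 4.31, 4.34 and 6.25 in resting Treg, and 4.33 and 4.53 in conventional T cells. Adgre1 was at 6.92, 5.10 and 5.68 in activated Treg, 5.14, 5.32 and 5.49 in resting Treg, and 4.78 and 4.90 in conventional T cells. Tyrobp, the signalling adaptor DAP12, reached 6.82 on activated Treg replicate 1 and 7.53 on resting Treg replicate 3, against 4.98 to 5.34 on the other 6 arrays. Of 8 measured neutrophil granule genes, 6 were highest on activated Treg replicate 1, and so were 8 of 14 tissue-restricted genes.

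Not all genes listed as myeloid were low in these cells. Ctss, the lysosomal protease cathepsin S, was at 12.41, 12.69 and 12.68 in activated Treg, 12.80, 12.50 and 12.72 in resting Treg, and 12.69 and 12.75 in conventional T cells. Its signal was high on all 8 arrays, resting Treg overlapped with conventional T cells, and activated Treg lay just below them. Cst3, which encodes the protease inhibitor cystatin C, was at 8.97, 8.81 and 9.65 in activated Treg, 8.65, 9.45 and 10.00 in resting Treg, and 8.38 and 8.32 in conventional T cells. Csf1r, the receptor for macrophage colony-stimulating factor, was at 7.17, 6.63 and 5.66 in activated Treg, 6.35, 5.35 and 5.58 in resting Treg, and 5.85 and 6.24 in conventional T cells. The other probe sets of Csf1r averaged 5.72 and 5.62, below the highest tissue-restricted gene (5.93). Neither Cst3 nor Csf1r passed in any of the 3 sorted comparisons, although Cst3 passed for both Treg groups with the Actb class as a block.

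The remaining myeloid genes were Cd68, Fcer1g, Mpo, Cd14, Elane, Pf4, Itgam, Itgax and Xcr1. By their means all lay below the highest tissue-restricted gene (5.93), and none passed in a sorted comparison. Against conventional T cells, Fcer1g and Xcr1 were higher on every Treg array, and Cd68 on every activated Treg array. Mpo and Itgax were lower on every resting Treg array, and Itgam on every activated Treg array. Elane (neutrophil elastase) lay below every conventional T cell value in both Treg groups, at 5.11, 4.84 and 4.92 in activated Treg, 4.55, 4.85 and 4.86 in resting Treg, and 5.12 and 5.33 in conventional T cells. For Elane the margin in activated Treg was narrow, with a highest value of 5.114 against 5.116 in conventional T cells. The Elane difference for resting Treg was -0.47 ± 0.18 (SE; limma, adjusted p = 0.209). Pf4, the platelet chemokine CXCL4, ranged from 4.58 to 5.39, with no test passed.

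Counted by overlap, 17 of the 32 genes were higher on every resting Treg array than on both conventional T cell arrays, comprising 7 myeloid genes, all 6 of the MHC class II and Cd83 group and 4 B cell genes. Over all genes this share was 21.6%. For activated Treg it was 20 of the 32 genes (9 myeloid, 6 of the MHC class II and Cd83 group and 5 B cell genes), against 21.4% of all genes. Lower on every Treg array were 3 myeloid genes in each comparison, and these shares over all genes were 20.4% and 19.7%. The median difference over the 32 genes was 0.70 for resting Treg and 0.67 for activated Treg, and 0.01 and 0.02 over all genes. Without resting Treg replicate 3 the median for resting Treg was 0.38, and without activated Treg replicate 1 that for activated Treg was 0.37. With the Actb class as a block they were 0.36 and 0.78.

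Activated and resting Treg differed in stimulation, and no member passed in this comparison, in which 0.742% of all genes were called. Of the 32 genes, 1 had an unadjusted p under 0.05, as did 11.5% of all genes: Cd83, with a difference of 0.90 ± 0.25 (SE; limma, adjusted p = 0.174). By overlap it was also the single member higher on every activated Treg array, against 6.03% of all genes. The largest differences were 2.04 ± 1.54 for S100a8, 1.38 ± 1.44 for S100a9 and 1.27 ± 0.58 for Lyz2 (SE; limma, adjusted p = 0.709, 0.802 and 0.461). Without activated Treg replicate 1 they were -0.01, -0.54 and 0.53, so the first 2 changed sign. Within the arrays of a large Actb 3' minus 5' signal (2 activated and 1 resting Treg) S100a8 differed by 2.94, and within those of a small signal (1 activated and 2 resting Treg) by -0.74.

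**Figure D2:**
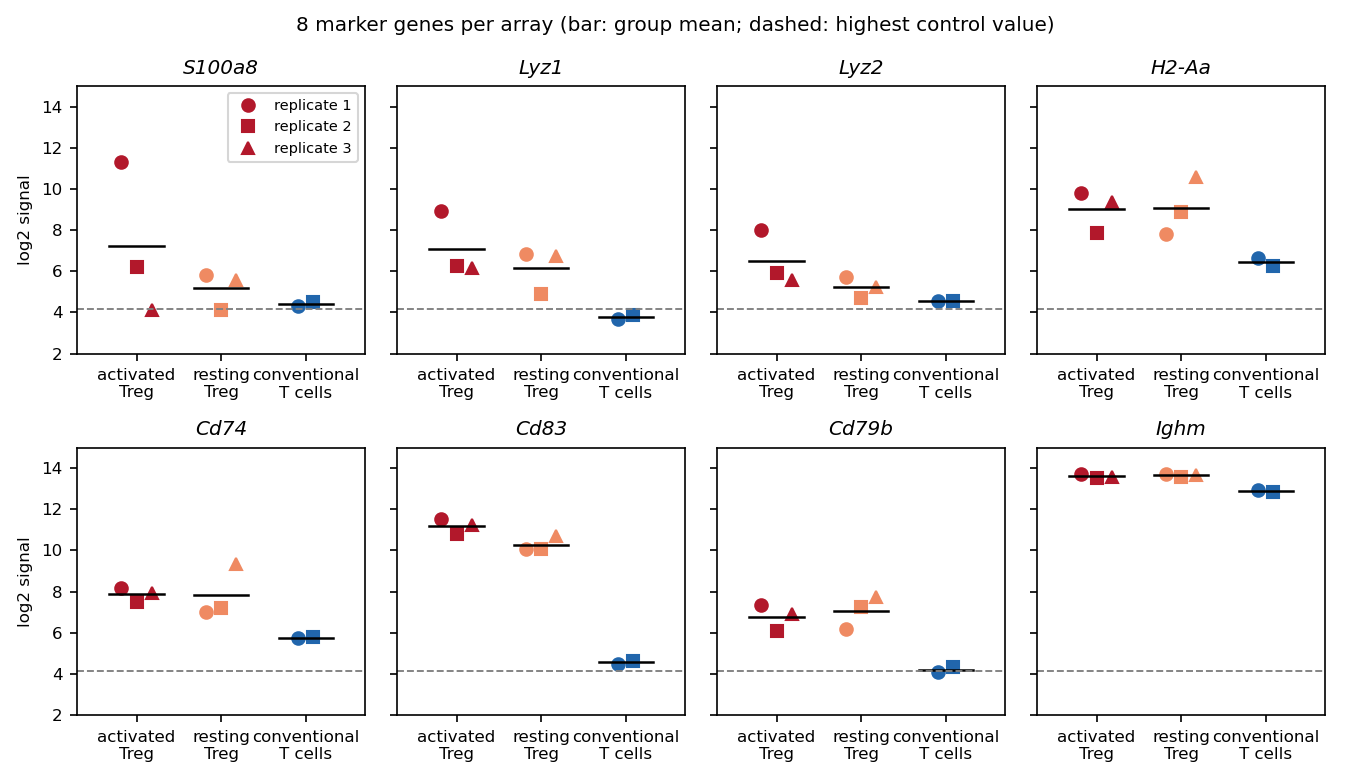
Log2 signal of 8 marker genes on each sorted array, with activated Treg, resting Treg and resting conventional T cells from left to right, the group mean as a bar and the highest control value of any array (4.14) as a dashed line. Lyz1, Lyz2, H2-Aa, Cd74, Cd83, Cd79b and Ighm separate both Treg groups from conventional T cells. S100a8 is high on 1 activated Treg array (11.29), and H2-Aa and Cd74 spread widely within resting Treg.

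Lists of further markers, with 103 measured genes, were read beside these genes. Against conventional T cells, 14 (13.6%) were called in resting Treg and 20 (19.4%) in activated Treg, where 5.51% and 9.70% of all genes were. Between activated and resting Treg 2 (1.94%) were called, and 0.742% of all genes. The counts against conventional T cells include the Treg genes Foxp3, Ikzf2, Ctla4 and Il2ra. Of 17 other myeloid genes Ccr2, Ncf4 and Cybb were higher in resting Treg than in conventional T cells (2.17, 1.45 and 2.54) and the Fc receptor gene Fcgr3 was lower (-1.53). In activated Treg the same 4 differences were 3.06, 1.56, 2.65 and -1.53. Of 13 other antigen presentation genes the costimulatory ligand genes Cd80 and Cd86 were higher in resting Treg (4.26 and 3.46) and in activated Treg (3.58 and 2.48). In activated Treg Rfx5 was also higher (1.16), and H2-Ob, Ctsl and Lgmn were lower (-0.90, -1.20 and -1.77). Between activated and resting Treg, Ctsl and Cd86 were lower in activated Treg (-1.02 and -0.98).

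Of 12 other B and plasma cell genes Bank1 was higher in both Treg groups (1.82 in resting and 1.51 in activated Treg) and Cd72 in activated Treg (1.60). Of 8 neutrophil granule genes Cd177 was lower in both (-1.12 in resting and -1.27 in activated Treg). Ccr9 among 9 dendritic cell genes was higher in resting Treg (1.99), and Fscn1 in activated Treg (4.28). Klrd1 among 7 CD8 and NK genes was lower in both (-4.73 in resting and -6.69 in activated Treg). Of 14 T cell genes Foxp3, Ikzf2, Ctla4 and Il2ra were higher in both, and Lat was lower in activated Treg (-2.02). None of 6 platelet, 3 erythroid or 14 tissue-restricted genes passed in any sorted comparison. All genes given here as higher or lower passed limma's test with adjusted p under 0.05. Those beyond the 4 largest differences of a comparison were named after their values were seen. Without activated Treg replicate 1, Fscn1, Cd72, Bank1, Lat, H2-Ob and Lgmn lost their calls in activated Treg and Ccr2 in resting Treg. Ccr9 lost its call without resting Treg replicate 3, and Ctsl and Cd86 between activated and resting Treg without either of these arrays. Foxp3, Ikzf2, Ctla4, Il2ra, Cd80, Cd86, Cybb and Klrd1 kept their calls against conventional T cells under all 15 alternatives.

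On the ligand arrays 19 of the 32 genes had a mean above the highest mean of 23 nonspecific control probe sets (3.95), and 58.3% of all genes did. By class these were 10 of 19 myeloid genes, 5 of the 6 in the MHC class II and Cd83 group and 4 of 7 B cell genes. Not above it were Lyz1, Clec4d, Mpo, Adgre1, Cd14, Elane, Itgam, Itgax, Xcr1, Ciita, Ighm, Blk and Pax5. Ighm has 1 probe set here, which averaged 3.21. The probe set of the same number on the sorted arrays was one of the low ones, at 4.48. Against the highest of 13 tissue-restricted genes (Prm1, 5.40), 14 of the 32 genes lay higher.

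The genes of each class with the highest means on these arrays were Ctss, Cst3 and Lyz2, then H2-Aa, Cd83 and Cd74, then Cd79b, Ms4a1 and Cd79a. Of these, only Cd79a did not lie above the highest tissue-restricted gene (Prm1, 5.40). Over the 32 arrays Ctss was between 9.78 and 10.49 (mean 10.14), Cst3 between 8.49 and 8.90 (mean 8.69) and Lyz2 between 5.82 and 7.13 (mean 6.47). H2-Aa was between 8.27 and 8.95 (mean 8.61), Cd83 between 8.20 and 8.91 (mean 8.56) and Cd74 between 8.11 and 8.67 (mean 8.39). Cd79b was between 6.45 and 7.10 (mean 6.78), Ms4a1 between 5.90 and 6.51 (mean 6.21) and Cd79a between 4.95 and 5.62 (mean 5.29). All 9 were above the control mean on all 32 arrays. These ranges carry only the differences within pairs, since each pair had been given the same mean.

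**Figure D3:**
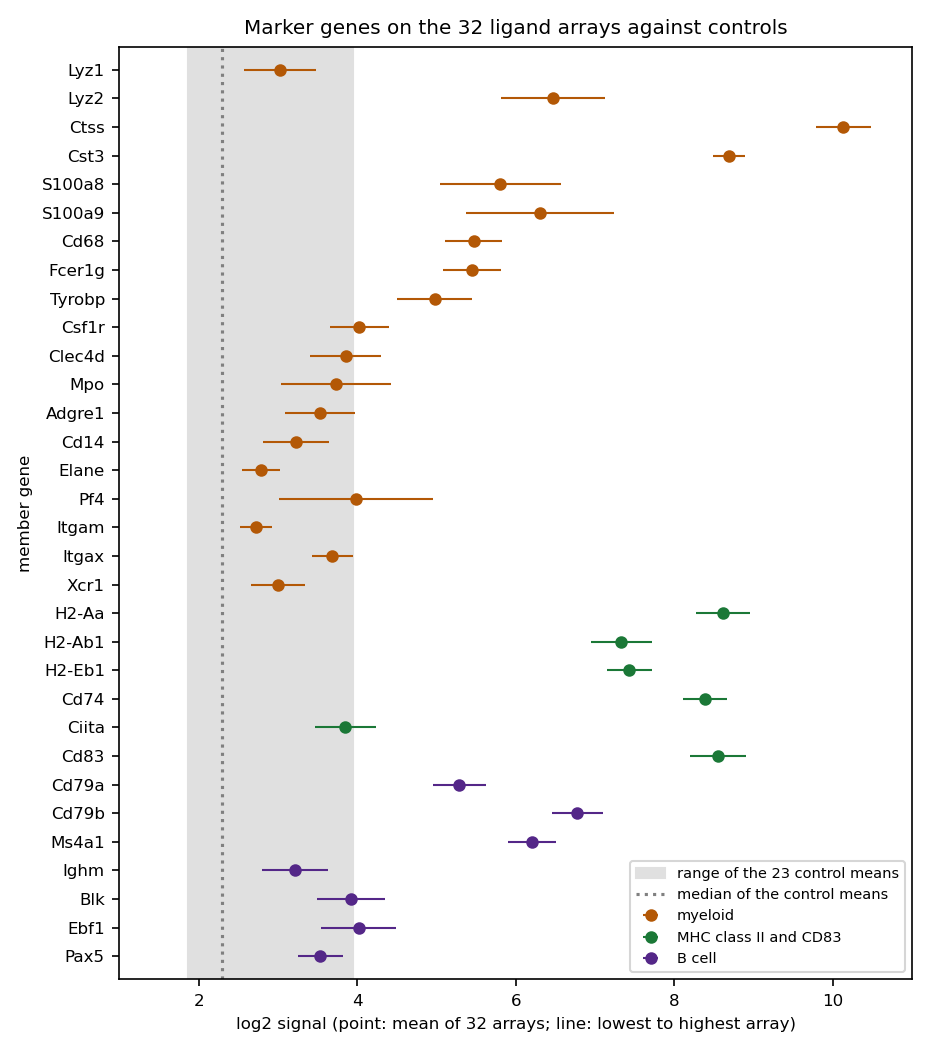
Mean log2 signal of the 32 marker genes on the 32 ligand arrays (points, coloured by class, with lines from the lowest to the highest array). The grey band spans the means of the 23 nonspecific control probe sets, up to 3.95, and the dotted line is their median (2.29). Ctss, Cst3, the H2 genes, Cd74 and Cd83 lie far above the band, and Pf4 (3.99), Csf1r (4.02) and Ebf1 (4.02) lie at its edge.

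Cells with Sema4a-Ig were compared with cells on IgG1 of the same pair, in NRP KO and in WT Treg. In NRP KO none of the 32 genes passed limma's test, as none of all genes did (0.00%), and 4 of the 32 had an unadjusted p under 0.05, as did 10.5% of all genes. In WT Treg 5 of the 32 were higher with Sema4a-Ig and none was lower: Lyz2, Pf4, Tyrobp, Ctss and Cd79b. Over all genes 5.79% were called in WT in either direction and 2.91% were called higher. No gene of the MHC class II and Cd83 group passed in either genotype.

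Lyz2 had pair differences with a lowest value of -0.31, a median of 0.19 and a highest of 0.97 in NRP KO, and of -0.19, 1.00 and 1.31 in WT. It was higher with Sema4a-Ig in 5 of 8 NRP KO pairs and in 7 of 8 WT pairs, and the genotypes overlapped. In WT its signal averaged 6.88 with Sema4a-Ig and 6.07 with IgG1. The mean difference was 0.25 ± 0.15 in NRP KO (SE; limma, adjusted p = 0.565) and 0.81 ± 0.15 in WT (adjusted p = 0.00439).

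Pf4 had a lowest difference of -0.45, a median of 0.01 and a highest of 0.38 in NRP KO, and of -0.37, 1.05 and 1.93 in WT. WT pairs 3, 4, 6 and 7 were high, between 1.42 and 1.93, while pairs 2 and 5 were negative. The mean difference was 0.02 ± 0.19 in NRP KO (SE; limma, adjusted p = 0.980) and 0.86 ± 0.19 in WT (adjusted p = 0.0100). In WT its signal averaged 4.42 with Sema4a-Ig and 3.55 with IgG1, around the highest control mean. It was above the controls of its own array on 6 of 8 WT arrays with Sema4a-Ig and on 2 of 8 with IgG1. Each pair had been given the same mean (3.99), which lies close to the highest control mean (3.95). These counts therefore restate the signs of the WT pair differences (6 positive and 2 negative) and are not a separate result on detection. With a signal this near the controls, the size of the difference is not well measured. None of 6 other platelet and megakaryocyte genes passed in either genotype, and 5 of these 6 were not above the controls.

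Ctss was higher with Sema4a-Ig in all 8 NRP KO pairs and in all 8 WT pairs. Its differences had a lowest value of 0.03, a median of 0.11 and a highest of 0.42 in NRP KO, and of 0.05, 0.35 and 0.70 in WT. The mean was 0.16 ± 0.08 in NRP KO (SE; limma, adjusted p = 0.482) and 0.37 ± 0.08 in WT (adjusted p = 0.00849). In WT its signal averaged 10.32 with Sema4a-Ig and 9.95 with IgG1. The test of the difference between the genotypes gave -0.21 ± 0.11 (SE; limma, adjusted p = 0.854).

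Tyrobp had a lowest difference of -0.03, a median of 0.35 and a highest of 0.96 in NRP KO, and of -0.20, 0.37 and 0.95 in WT, positive in 7 of 8 pairs of each genotype. The means were close, at 0.36 ± 0.11 in NRP KO (SE; limma, adjusted p = 0.378) and 0.39 ± 0.11 in WT (adjusted p = 0.0433). Tyrobp was above the controls on all 32 ligand arrays, but its mean level (4.98) lay below the highest tissue-restricted gene (Prm1, 5.40). Cd79b had a lowest difference of -0.16, a median of 0.09 and a highest of 0.39 in NRP KO, and of -0.25, 0.38 and 0.65 in WT. It was positive in 6 of 8 NRP KO pairs and in 7 of 8 WT pairs, with means of 0.09 ± 0.09 (SE; limma, adjusted p = 0.724) and 0.35 ± 0.09 (adjusted p = 0.0241).

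**Figure D4:**
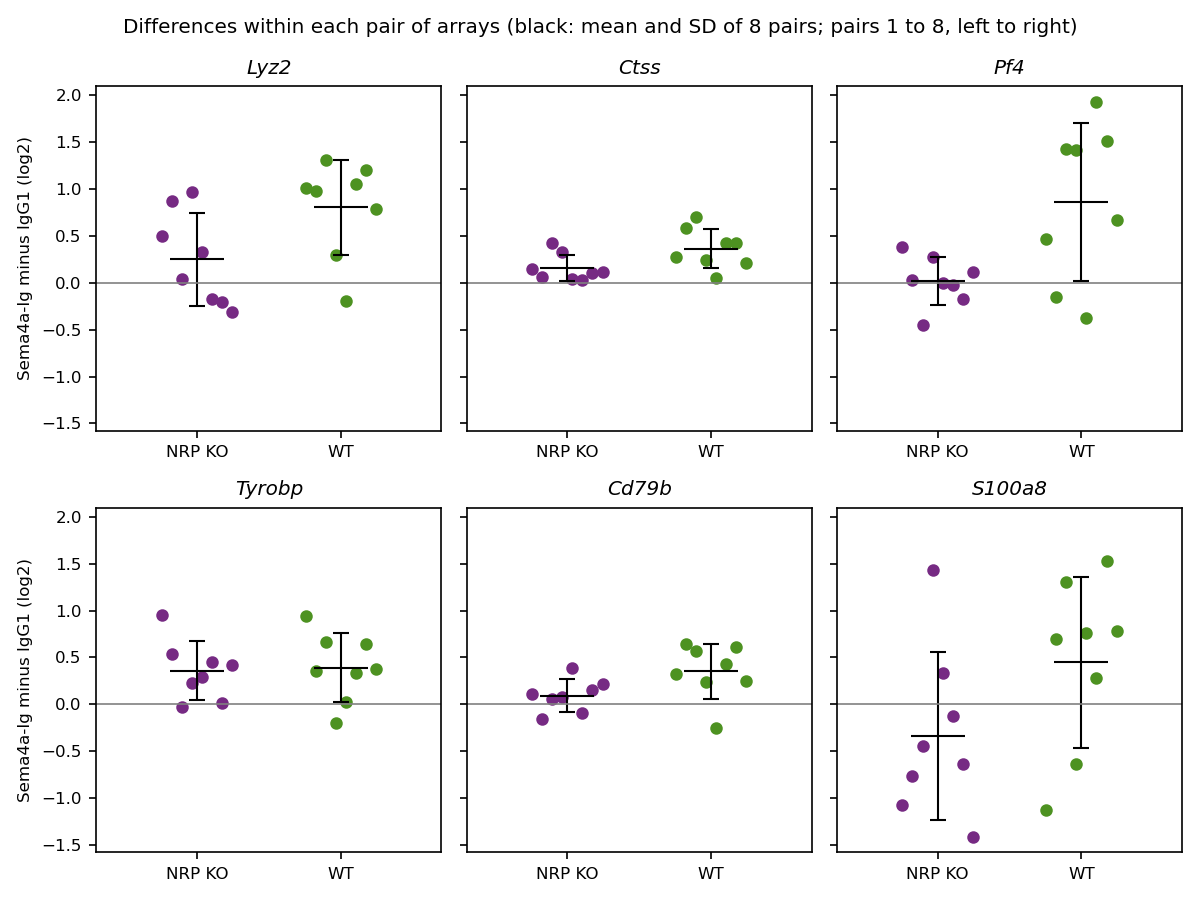
Sema4a-Ig minus IgG1 differences (log2) of 6 marker genes in each of 8 NRP KO pairs (left) and 8 WT pairs (right), with the mean and SD in black. Ctss is above 0 in all 16 pairs, Lyz2 in 5 NRP KO and 7 WT pairs, Pf4 reaches 1.93 in WT and 0.38 in NRP KO, and S100a8 spreads on both sides of 0 in both genotypes.

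The calls for Tyrobp and Cd79b were lost when some single pairs were left out. Without WT pair 2, whose Sema4a-Ig array has conflicting labels, 3 members passed: Lyz2 (0.78, adjusted p = 0.0144), Ctss (0.34, adjusted p = 0.0252) and Pf4 (1.01, adjusted p = 0.00593). Cd79b was then at 0.31 (limma, adjusted p = 0.0613) and Tyrobp at 0.40 (adjusted p = 0.0704). Lyz2, Ctss and Pf4 likewise made up the calls without WT pair 3 and without WT pair 7.

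S100a8 and S100a9 varied widely between pairs. S100a8 had a lowest difference of -1.41, a median of -0.54 and a highest of 1.43 in NRP KO, and of -1.12, 0.73 and 1.53 in WT. The means were -0.34 ± 0.26 in NRP KO (SE; limma, adjusted p = 0.658) and 0.45 ± 0.26 in WT (adjusted p = 0.351). S100a9 averaged -0.14 ± 0.25 in NRP KO (SE; limma, adjusted p = 0.873) and 0.37 ± 0.25 in WT (adjusted p = 0.436). Both genes were highest in NRP KO pair 4, at 1.43 and 1.88.

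In NRP KO the members with an unadjusted p under 0.05 were Tyrobp, Itgax, Ebf1 and Cd83. Ebf1 was positive in 8 of 8 NRP KO pairs, with a lowest value of 0.03, a median of 0.13 and a highest of 0.95, and in 5 of 8 WT pairs, with -0.51, 0.06 and 0.46. Its mean difference was 0.29 ± 0.11 in NRP KO (SE; limma, adjusted p = 0.419) and 0.05 ± 0.11 in WT (adjusted p = 0.865). Its signal lay at the edge of the controls. Cd83 was negative in 7 of 8 NRP KO pairs, with a mean of -0.19 ± 0.08 (SE; limma, adjusted p = 0.462), and averaged -0.01 in WT (adjusted p = 0.980).

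The MHC class II genes differed little with treatment. The means for H2-Aa, H2-Ab1, H2-Eb1, Cd74 and Ciita were between -0.04 and 0.05 in NRP KO and between -0.07 and 0.20 in WT, and no adjusted p was under 0.346 in WT. Of the 7 B cell genes, those other than Cd79b and Ebf1 averaged between -0.15 and 0.16 in NRP KO and between -0.13 and 0.22 in WT.

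By sign, the mean difference was positive for 16 of the 32 genes in NRP KO, among them 8 of 19 myeloid genes, and for 24 of the 32 in WT, among them 16 of 19 myeloid genes. Over all genes 45.0% were positive in NRP KO and 46.1% in WT. The median difference of the myeloid genes was -0.05 in NRP KO and 0.17 in WT, against -0.02 and -0.01 over all genes. The WT value was 0.11 without WT pair 7 and 0.23 without WT pair 2. WT pairs differed in this: 28 of the 32 genes were positive in pair 8 and 27 in pair 7, but 9 in pair 5, while 44.4% to 51.3% of all genes were positive in any WT pair. In NRP KO pairs the count was between 12 and 22 of the 32.

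**Figure D5:**
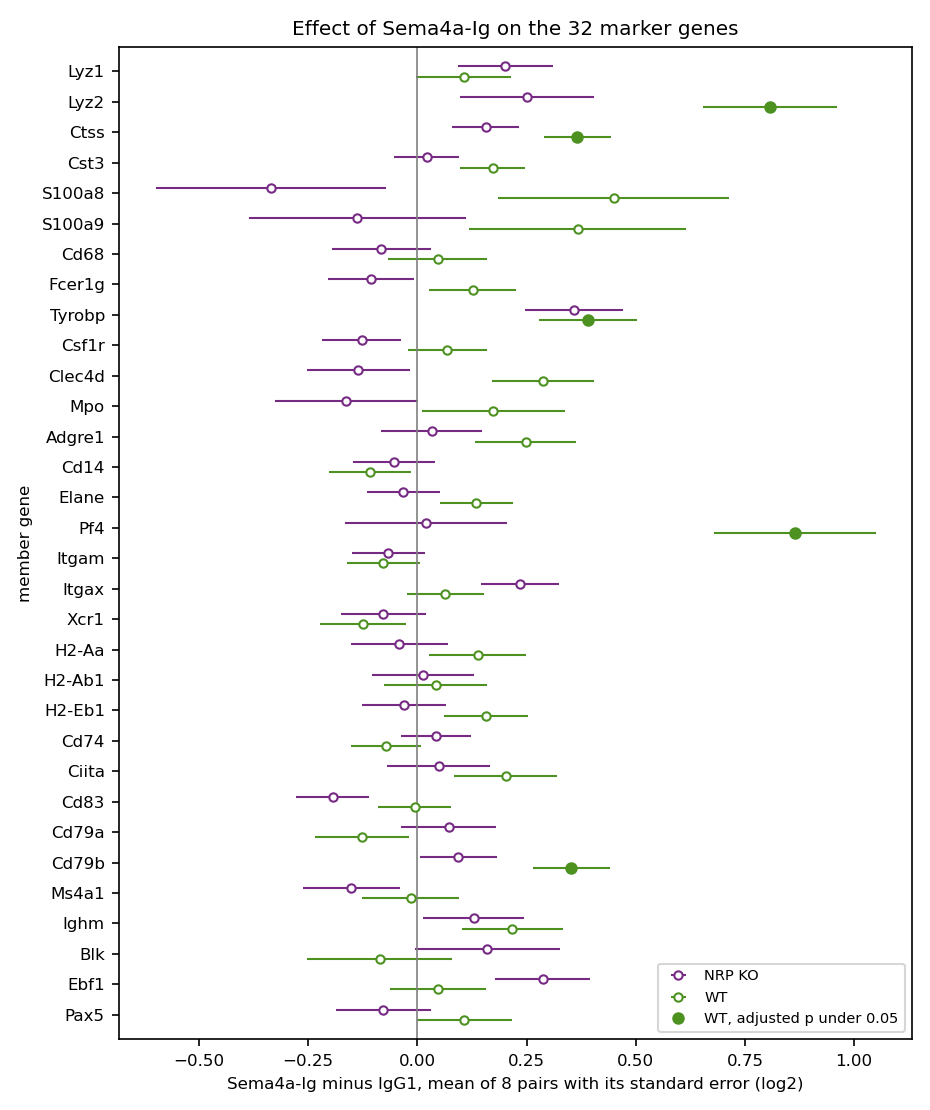
Mean Sema4a-Ig minus IgG1 difference (log2, with standard error, 8 pairs) of the 32 marker genes in NRP KO (purple, upper point of each row) and WT (green, lower point). Filled points mark the 5 genes with adjusted p under 0.05, all in WT. Lyz2 (0.81) and Pf4 (0.86) lie furthest from 0 in WT, and most other myeloid genes are a little above 0 in WT and scattered around it in NRP KO.

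Whether the effect of Sema4a-Ig depended on genotype was tested as the NRP KO minus the WT difference. None of the 32 genes passed, as none of all genes did (0.00%), and 4 members had an unadjusted p under 0.05, as did 5.94% of all genes. The largest values were -0.85 ± 0.26 for Pf4, -0.79 ± 0.37 for S100a8 and -0.56 ± 0.22 for Lyz2 (SE; limma, adjusted p = 0.716, 0.830 and 0.791). Without WT pair 2 they were -0.99, -0.75 and -0.53 (limma, adjusted p = 0.508, 0.850 and 0.820). The calls made in WT but not in NRP KO are therefore not shown to differ between the genotypes.

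Of 103 measured genes of the further marker lists, 7 (6.80%) were called in WT on the ligand arrays, close to the share of all genes (5.79%). In WT Treg with Sema4a-Ig, Ccr2 was higher among 18 other myeloid genes (0.46), Ltf among 8 neutrophil granule genes (0.48), H2-DMa and Cd86 among 14 other antigen presentation genes (0.45 and 0.39) and Ikzf2 among 14 T cell genes (0.29). Pou2af1 was lower among 11 other B and plasma cell genes (-0.47) and Nkg7 among 8 CD8 and NK genes (-0.52). Each passed limma's test with adjusted p under 0.05, and H2-DMa, Cd86 and Ikzf2 were named after their values were seen. Without WT pair 2 Ccr2 and Nkg7 lost their calls. Ccr2, Ltf, Ikzf2 and Nkg7 did so without WT pair 3 and without WT pair 7, and Pou2af1 without WT pair 3. None of 8 dendritic cell, 3 erythroid or 13 tissue-restricted genes passed in WT, and no gene of any list did so in NRP KO or between the genotypes. Their part in the values of the 32 genes was not tested.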

How the data were processed

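RNA of 40 mouse T cell samples was read on 2 Affymetrix 3' array types. The authors deposited log2 values, made with RMA in Partek 6.6 per the submitters' processing notes, and these were analysed unchanged. The 32 genes and 10 further marker lists were chosen with earlier results of these data known. Probe sets annotated to 1 gene were kept, the one with the highest mean per gene. Sorted T cells were fitted with limma 3.58.1 (R 4.3.3) as 3 groups (5 residual degrees of freedom), and ligand arrays as 16 Sema4a-Ig minus IgG1 differences (14 residual degrees of freedom), paired by neighbouring codes in the titles, since pair means had been made equal. Adjusted p-values are Benjamini-Hochberg over all genes, with a threshold of 0.05. No depth exists for arrays, and the number of arrays limits the precision. Values per sample are given for members called, for the 3 with the highest mean level of each class, and for the 3 with the largest difference of each comparison. Other genes of the lists were to be named where called, at most 4 per comparison. The fit was tested on simulated data. Alternatives were the mean of all probe sets, genes above the controls only, an intensity trend, array weights, arrays centred on their median, the Actb 3' minus 5' signal as a block or covariate, groups without the pairs, and leaving out each array or pair.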

Additional observations from a re-analysis of the deposited data

Results flagged for a closer look

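In groups of 8 pairs, 3 of the 64 sets of pair differences held a pair that stood apart from the others (gap over range above 0.526), and chance flags about 1 in 20 groups. Cst3 in WT pair 2, which holds the array with conflicting labels, was at -0.31, against 0.10 to 0.41 in the other 7 WT pairs. S100a9 in NRP KO pair 4 was at 1.88, against -1.27 to 0.09 in the other NRP KO pairs. Cd79b in WT pair 5 was at -0.25, against 0.24 to 0.65 in the other WT pairs. No explanation was tested.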

How the results depend on the processing

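Cd83 kept its call against conventional T cells under all 15 alternatives (5.50 to 5.82 in resting Treg, 6.34 to 6.81 in activated Treg), and Lyz2, Ctss and Pf4 kept theirs in WT under all 23 (0.73 to 0.95, 0.32 to 0.41 and 0.71 to 1.04). Lyz1 in activated Treg lost its call under 8 of 15 and Tyrobp in WT under 12 of 23. With array weights, 8 members were called in resting Treg and 10 in activated Treg against conventional T cells, and with the mean of all probe sets 2 in activated Treg. Leaving out 1 array gave 1 to 4 calls for resting Treg, 0 for activated against resting Treg and 1 to 7 for activated Treg against conventional T cells. Leaving out 1 pair gave 0 in NRP KO, 3 to 6 in WT and 0 for NRP KO minus WT. With group means and no replicate block, 5 members were called in NRP KO, 8 in WT and 2 for NRP KO minus WT. Since pair means had been made equal, that fit counts mirrored values as separate samples. For activated minus resting Treg, leaving out 1 array gave S100a8 from -0.0071 to 3.59 and S100a9 from -0.54 to 2.64, both lowest without activated Treg replicate 1. With both arrays of high markers left out, an alternative chosen after seeing the data, S100a9 was at -0.17, and 5, 0 and 6 members were called for resting Treg against conventional T cells, activated against resting Treg and activated Treg against conventional T cells. The causes were not tested. Genes near the controls, such as Pf4, are measured least well.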
